A study of Homo sapiens with 6 samples.

Results

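The genes described here encode the protein import machinery of mitochondria and a few of the carrier proteins that this machinery installs. They were found by their gene symbols in the annotation of the array, those beginning with TOMM, TIMM or SLC25A and a number, leaving out antisense names. This gave 26 genes of the 14884 named on the array, with 10 genes of the outer membrane translocase (TOMM), 13 of the inner membrane translocases (TIMM) and 3 carrier names (SLC25A). The carrier part is small, since 2 of the 3 are protein-coding and the third, SLC25A51P4, is a pseudogene. The ADP/ATP, phosphate, citrate, aspartate-glutamate and carnitine carriers were not analysed here, so nothing that follows speaks for the carrier family as a whole. Where a gene had several probe sets, the one with the highest mean over the 6 arrays stood for it.

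RNA came from A549, a human cell line established from a lung adenocarcinoma, kept for 7 days on attachment plates in DMEM with serum. The LA717 group received 0.03% (w/v) of LA717, an agar of low molecular weight, and the control group Milli-Q water instead. There were 3 arrays per group, and that number limits the precision. The study gives independent experiments for another comparison of its array data, and does not state this for the comparison made here. The titles only number the replicates, with no word on whether an experiment supplied 1 array to each group. One characteristic of the LA717 arrays speaks of low-attachment plates, against their titles, descriptions and treatment protocol, which all give attachment plates.

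Nearly all mitochondrial proteins are made in the cytosol and cross the outer membrane through the TOM complex, whose receptors pass them to the TOMM40 channel. Precursors with a cleavable presequence then go through the TIM23 translocase into the matrix or inner membrane. Carrier proteins, which have no such presequence, are escorted across the intermembrane space by the small TIM chaperones and inserted by the TIM22 translocase. Carriers in turn move nucleotides, phosphate, amino acids and keto acids across the inner membrane, so the genes in view cover both the machine and one of its main products.

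LA717 and control medium were compared to see how expression differs with the agar in cells cultured on attachment plates. Each difference below is LA717 minus control on the log2 scale. No import or carrier gene passed the test, with 0 of 26 at a limma adjusted p under 0.05, against 0% of all 53617 probe sets. The members' adjusted p ran from 0.92 upwards. Differences ran from −0.22 for TOMM20L to 0.27 for TIMM8B, and the 95% interval of each of the 26 lay within a 2-fold change in either direction, as did 99.6% of those over all genes. For 24 of the 26, all but TIMM10 and TOMM20L, it also lay within 1.5-fold, a share of 92.3% against 91.6% of all genes. Signal over background is unknown here, and for dim genes the interval bounds the probe signal, not the transcript. The 2 dimmest genes, SLC25A51P4 and TOMM20L, averaged less than the median probe set (3.19, log2 intensity), and the other 24 averaged more.

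**Figure D1:**
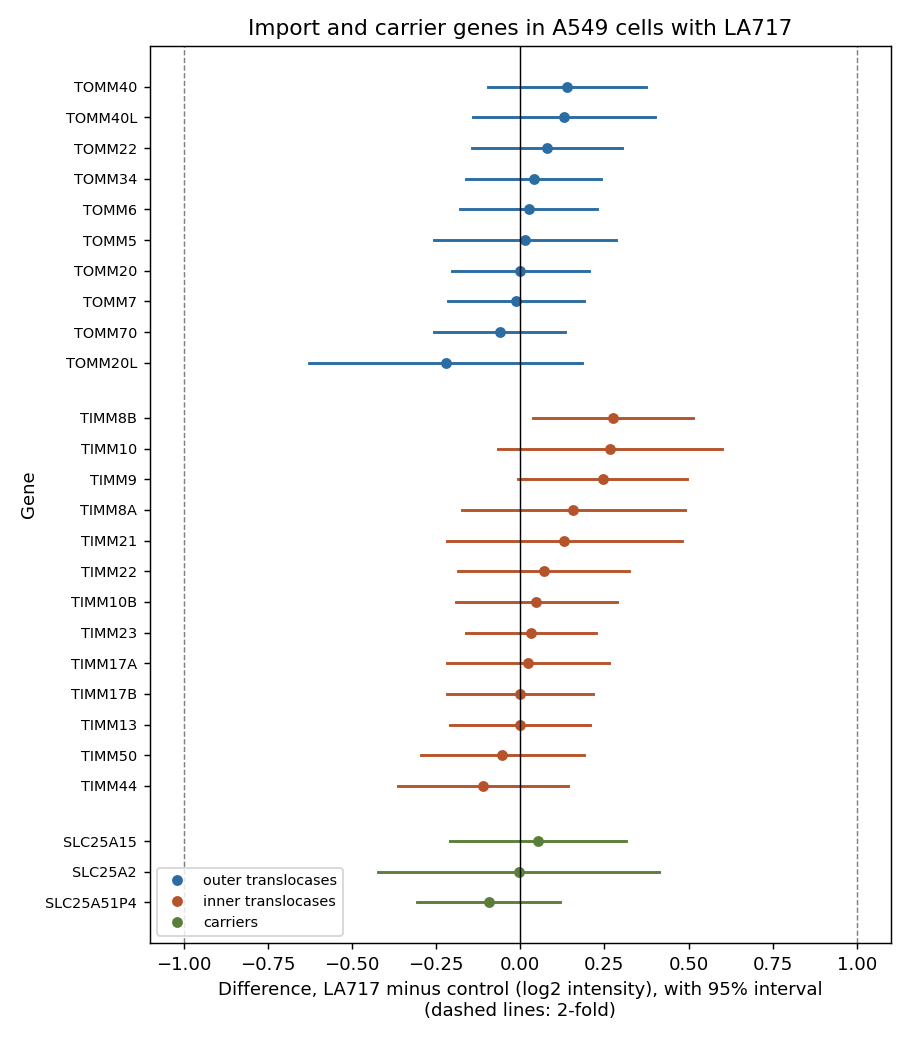
Difference between LA717 and control arrays for each of the 26 genes (log2 intensity, points) with its 95% interval from limma (lines), grouped into outer translocases, inner translocases and carriers, with dashed lines at a 2-fold change. Every interval stays inside the dashed lines, and only that of TIMM8B, from 0.037 to 0.51, does not reach 0.

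At an unadjusted p under 0.05 there was 1 of 26 genes, TIMM8B, where 4.4% of all genes reached that level. The 3 LA717 values all lay above the 3 control values in 2 of 26 genes, TIMM8B and TIMM9, against 4.86% of all genes, and the opposite occurred in 0 (in either direction, 11.5% of all genes did not overlap). In the means, 18 of 26 genes were higher with LA717, or 69.2%, against 47.9% of all genes, and their median difference was 0.029, against −0.0061 over all genes. By group the medians were 0.020 in outer translocases, 0.048 in inner translocases and −0.0041 in carriers. None of these medians is firm, since leaving out single arrays moved the median of all 26 between −0.0048 (without LA717 replicate 3) and 0.057 (without LA717 replicate 1), that of outer translocases between 0.0064 and 0.036, that of inner translocases between 0.0019 and 0.12 and that of carriers between −0.093 and 0.077. The difference of 12 of the 26 genes took both signs in this way. Without LA717 replicate 3 the number of genes higher was 13 of 26, and without control replicate 1 it was 16. The number at an unadjusted p under 0.05 was 0 in both cases.

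LA717 replicate 3 gave the highest of the 6 values in 12 of 26 genes, or 46.2%, whereas it did so in 19.5% of all genes. It was the highest in 8 of the 13 inner translocases. LA717 replicate 1 gave the lowest value in 8 of 26 (30.8%, against 22.0% of all genes). The LA717 arrays were thus spread more widely than the control arrays for these genes, with the larger SD in 20 of 26 (76.9%, against 53.3% of all genes). The median SD was 0.114 with LA717 and 0.072 in control (n = 3 each), against 0.116 and 0.110 over all genes. The spread with LA717 was therefore near that of all genes, and the spread in control was smaller. The part of this spread in the differences that follow was not tested, beyond leaving out each array.

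**Figure D2:**
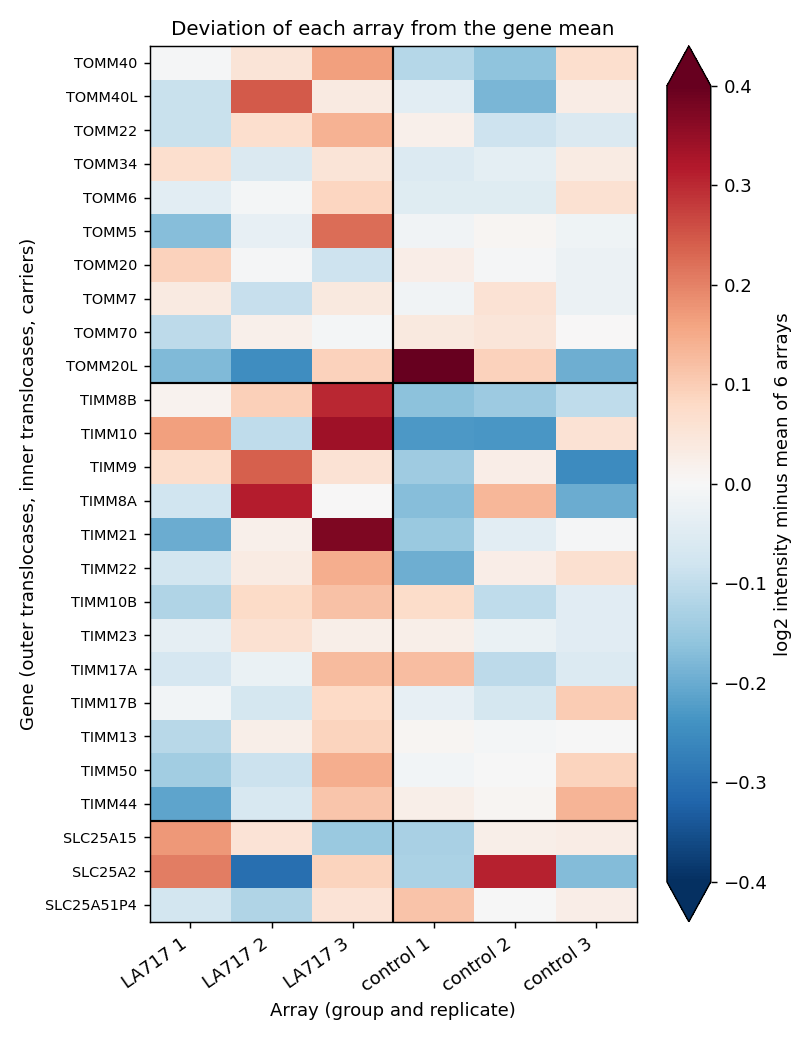
Deviation of each array from the mean of the 6 arrays (log2 intensity, colour) for the 26 genes (rows, by group and by falling difference) on the 3 LA717 and 3 control arrays (columns). LA717 replicate 3 is the highest array in 12 of the 26 rows, and LA717 replicate 1 the lowest in 8.

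The 4 highest differences of the 26 were all in small TIM chaperone genes. These short intermembrane space proteins pair up as TIMM9 with TIMM10 and TIMM8A or TIMM8B with TIMM13, and hold hydrophobic precursors soluble on their way from TOM. TIMM8B was at 6.66, 6.74 and 6.95 on the LA717 arrays and at 6.48, 6.50 and 6.54 on the control arrays (log2 intensity). The 3 LA717 values lay above every control value, with the most distant one from replicate 3. The difference was 0.27 (SE 0.10, 95% interval 0.037 to 0.51, limma adjusted p = 0.92), or 1.21-fold, and 0.19 without LA717 replicate 3.

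TIMM9 encodes the chaperone that forms the main carrier-escorting hexamer with TIMM10. It gave 7.04, 7.21 and 7.03 with LA717, and 6.83, 6.996 and 6.72 in control. Here too the groups did not overlap, although control replicate 2 came close to the 2 lower LA717 values. The difference was 0.24 (SE 0.11, interval −0.0068 to 0.50, limma adjusted p = 0.92) and lay between 0.18 and 0.32 when single arrays were left out. TIMM9 shares a promoter region with KIAA0586, a gene for a centrosomal protein that is transcribed the opposite way, and KIAA0586 differed by −0.068 (SE 0.11). It also overlaps TOMM20L on the other strand, according to RefSeq.

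Its partner TIMM10 was at 7.07, 6.81 and 7.25 with LA717 and at 6.68, 6.68 and 6.97 in control. The difference of 0.27 (SE 0.14, interval −0.065 to 0.60) resembled that of TIMM9 in size, but the groups overlapped, LA717 replicate 2 lying below control replicate 3. It ran from 0.16 without LA717 replicate 3 to 0.39 without LA717 replicate 2. TIMM8A, the gene mutated in deafness-dystonia syndrome, had 5.56, 5.96 and 5.64 with LA717 and 5.47, 5.77 and 5.44 in control, where replicate 2 was the highest array in both groups. Its difference was 0.16 (SE 0.14), and 0.041 without LA717 replicate 2.

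The other 2 chaperones of this class had smaller differences. TIMM13, the partner of the TIMM8 proteins, averaged 9.03 ± 0.10 with LA717 and 9.03 ± 0.0078 in control (SD, n = 3 each), a difference of −0.00042 with an interval from −0.21 to 0.21. TIMM10B, a chaperone bound to the TIM22 translocase, had 7.43, 7.63 and 7.67 with LA717 and 7.63, 7.45 and 7.51 in control, with overlapping groups and a difference of 0.048 (SE 0.10). The median over the 6 chaperones was 0.20, against 0.024 over the other 7 inner translocase genes, and it ran from 0.11 without LA717 replicate 2 to 0.24 without LA717 replicate 1. The class was singled out with these values known, so its median is a description. In RNA from a whole culture, more transcript per cell and more cells with the transcript cannot be told apart.

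**Figure D3:**
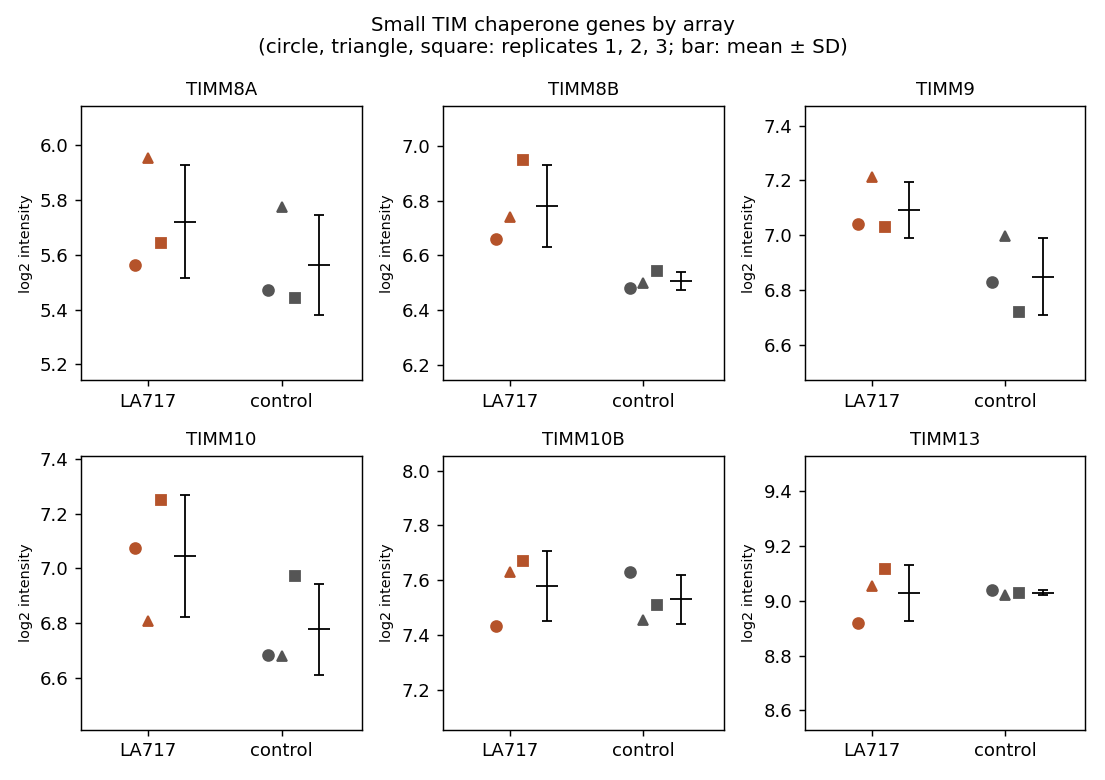
Log2 intensity of the 6 small TIM chaperone genes on the LA717 arrays (left in each panel) and the control arrays (right), with replicates as circles, triangles and squares and the mean with its SD as a bar, on axes of equal span. The groups are apart in TIMM8B and TIMM9, overlap in TIMM8A, TIMM10 and TIMM10B, and have nearly equal means in TIMM13.

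Genes of the TIM23 presequence translocase had differences on both sides of 0, from −0.11 for TIMM44 to 0.13 for TIMM21. TIMM23, which forms the channel, was at 9.55, 9.64 and 9.61 with LA717 and at 9.61, 9.56 and 9.54 in control, a difference of 0.032 (interval −0.16 to 0.22). RefSeq holds a near-identical copy, TIMM23B, and it is not known here whether the probes tell them apart. The paralogs TIMM17A and TIMM17B are alternative subunits of the same channel. TIMM17A was at 5.50, 5.54 and 5.69 with LA717 and at 5.69, 5.46 and 5.51 in control, a difference of 0.024 (SE 0.10). TIMM17B was at 5.21, 5.14 and 5.30 with LA717 and at 5.18, 5.15 and 5.32 in control, a difference of 0.00010 (SE 0.093). The groups overlapped in both.

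TIMM50, the receptor that takes over precursors from TOM, was at 9.02, 9.07 and 9.30 with LA717 and at 9.14, 9.15 and 9.24 in control, with overlapping groups and a difference of −0.053 (SE 0.10). TIMM44, which tethers the matrix heat shock protein that pulls precursors in, gave the lowest difference among inner translocases. It was at 6.31, 6.46 and 6.64 with LA717 and at 6.55, 6.53 and 6.66 in control, so that LA717 replicates 1 and 2 lay below every control array while replicate 3 lay among them. The difference was −0.11 (SE 0.11, interval −0.36 to 0.14) and ran from −0.19 without LA717 replicate 3 to −0.034 without LA717 replicate 1.

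TIMM21, which couples TIM23 to assembling respiratory chain proteins, rested on a single array. Its values were 6.78, 6.99 and 7.35 with LA717 and 6.83, 6.93 and 6.97 in control. Replicate 3 with LA717 stood far above the other 5 arrays, and the difference of 0.13 (SE 0.15) turned to −0.024 without it. TIMM22, the channel that inserts carriers, was at 9.53, 9.64 and 9.75 with LA717 and at 9.41, 9.63 and 9.67 in control. Its groups overlapped, with a difference of 0.070 (SE 0.11) that was −0.0093 without control replicate 1.

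In the outer membrane, the channel gene TOMM40 gave the highest difference. It was at 9.26, 9.31 and 9.43 with LA717 and at 9.15, 9.10 and 9.33 in control, a difference of 0.14 (SE 0.10, interval −0.096 to 0.37). Control replicate 3 lay above LA717 replicates 1 and 2, so the groups overlapped. A second probe set with this name, the only one of its kind among the 26 genes, gave 0.13 (SE 0.094). The paralog TOMM40L had 0.13 (SE 0.12), from values of 4.34, 4.67 and 4.46 with LA717 and 4.38, 4.24 and 4.45 in control, and lay between 0.039 without LA717 replicate 2 and 0.21 without LA717 replicate 1.

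The TOM receptors gave differences on both sides of 0. TOMM20, the receptor for presequences, averaged 7.001 ± 0.088 with LA717 and 7.0003 ± 0.025 in control (SD, n = 3 each), a difference of 0.00078 with an interval from −0.20 to 0.21. TOMM70, the receptor that takes carrier precursors from cytosolic chaperones, was at 8.56, 8.68 and 8.66 with LA717 and at 8.70, 8.71 and 8.66 in control. Its difference was −0.061 (SE 0.083), and the groups overlapped through control replicate 3 and LA717 replicate 2. TOMM22, the central receptor that also organises the complex, gave 6.98, 7.14 and 7.21 with LA717 and 7.09, 6.99 and 7.01 in control, a difference of 0.079 (SE 0.095) that was 0.029 without LA717 replicate 3 and 0.14 without LA717 replicate 1.

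Small subunits that stabilise the TOM complex had nearly equal means, with 0.015 for TOMM5 (SE 0.12), 0.025 for TOMM6 (SE 0.087) and −0.013 for TOMM7 (SE 0.086). TOMM5 was spread more widely on the LA717 arrays than on the control arrays. It was at 7.71, 7.85 and 8.11 with LA717, a range that held all of its control values of 7.87, 7.89 and 7.87. Its difference was −0.094 without LA717 replicate 3 and 0.10 without LA717 replicate 1. TOMM34, a cytosolic co-chaperone, differed by 0.040 (SE 0.085).

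TOMM20L, a paralog of TOMM20, had the lowest difference of all 26 genes, at −0.22 (SE 0.17, interval −0.63 to 0.18). It was dim, at 2.98, 2.90 and 3.24 with LA717 and at 3.59, 3.24 and 2.96 in control. The groups overlapped, and the difference was −0.060 without control replicate 1, the highest array.

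The carrier names gave no separation of the groups. SLC25A15, the ornithine carrier of the urea cycle, was at 5.69, 5.57 and 5.37 with LA717 and at 5.39, 5.54 and 5.55 in control, a difference of 0.052 (SE 0.11) that was −0.022 without LA717 replicate 1. SLC25A2, its paralog and also an ornithine carrier, varied widely within both groups, with 3.99, 3.48 and 3.87 with LA717 and 3.66, 4.09 and 3.61 in control. The difference of −0.0041 (SE 0.18) had the widest interval of the 3, from −0.42 to 0.41. The pseudogene SLC25A51P4 lay near the bottom of the scale at 2.08 ± 0.090 with LA717 and 2.18 ± 0.061 in control (SD, n = 3 each).

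Promoters were searched for short sites of factors known for nuclear genes of mitochondria. NRF-1 (nuclear respiratory factor 1) binds a palindromic GC-rich site, searched as GCGCANGCG, and the ETS family, to which GABP (NRF-2) belongs, binds the core searched as CCGGAAG, both on either strand and without overlap between them in these genes. RefSeq promoters (GRCh38.p14) were found for 22 of the 26 genes, and the 250 bases before each start were read. TIMM8B, TOMM5, SLC25A2 and SLC25A51P4 had no promoter to read, so a match in them is unknown. The NRF-1 letters stood in 5 of 22 (22.7%), TIMM9, TOMM7, TOMM20, TOMM34 and TOMM40, against 6.56% of all 35116 promoters. The ETS letters stood in 7 of 22 (31.8%, against 8.52% of all), TIMM10, TIMM10B, TIMM13, TIMM23, TOMM6, TOMM20 and TOMM70. One or the other was present in 11 of 22 (50%, against 14.0% of all), and TOMM20 was the only gene with both. The shares over all promoters were not matched for gene type or base content.

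The chaperone partners TIMM9 and TIMM10 lay among the highest differences, and TOMM20 had nearly equal means and held both sites. Shown for these genes are the 130 bases before the start. They run 5′ to 3′ on the gene's strand, which is the minus strand in each, with the matched letters in capitals. TIMM9 is read from chr14:58427532-58427661, with an NRF-1 match that begins 129 bases before the start. TIMM10 is read from chr11:57530755-57530884, with ETS matches at 55 and 13 bases before the start. TOMM20 is read from chr1:235128838-235128967, with an NRF-1 match at 101 and an ETS match at 22 bases before the start.
TIMM9: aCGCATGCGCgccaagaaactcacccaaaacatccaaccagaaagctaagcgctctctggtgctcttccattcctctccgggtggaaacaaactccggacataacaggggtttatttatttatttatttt
TIMM10: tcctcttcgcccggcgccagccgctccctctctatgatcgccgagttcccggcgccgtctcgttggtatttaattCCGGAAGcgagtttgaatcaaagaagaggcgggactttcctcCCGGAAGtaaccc
TOMM20: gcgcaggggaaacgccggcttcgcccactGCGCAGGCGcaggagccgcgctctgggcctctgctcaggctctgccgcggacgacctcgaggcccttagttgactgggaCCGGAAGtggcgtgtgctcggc

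Differences of genes with and without a match covered overlapping ranges. Genes with the NRF-1 letters ran from −0.013 (TOMM7) to 0.24 (TIMM9), and those with the ETS letters from −0.061 (TOMM70) to 0.27 (TIMM10). The median difference was 0.032 over the 11 genes with a match and 0.052 over the 11 without one. TIMM8B, the gene with the highest difference, is in neither median, as its promoter was not read. NRF1 itself, the gene for the factor, was at 5.46, 5.75 and 5.54 with LA717 and at 5.49, 5.48 and 5.89 in control, with overlapping groups and a difference of −0.032 (SE 0.14). These matches are of letters only and say nothing of binding.

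Other genes of the import route and of mitochondria were read from 9 lists. Some hold peptidases, chaperones and complexes of the route. Others hold the MICOS complex, carriers and channels outside the SLC25A names, and regulators of mitochondrial biogenesis. Of 69 listed genes 42 were measured, 25 higher and 17 lower with LA717 in the mean, and 0 of 42 passed the limma adjusted p, with 1 of 42, MTX3, at an unadjusted p under 0.05 (4.4% of all genes). One list holds the disulfide relay of the intermembrane space, which folds the small TIM chaperones, together with other substrates of the relay. Its 5 measured genes had positive differences, but these were small, from 0.027 for COX19 to 0.084 for CHCHD4. CHCHD4 (SE 0.12) is the oxidoreductase at the centre of the relay, and COX19 is listed as a substrate. The 5 matrix chaperones and proteases were also positive, from 0.020 for CLPX to 0.10 for the iron-sulfur cluster co-chaperone gene HSCB. HSPA9, the matrix Hsp70 that pulls precursors through TIM23, stood at −0.012 (SE 0.083).

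The greatest difference in these lists was that of MTX3, which encodes a metaxin, a family tied to the sorting and assembly machinery of the outer membrane. MTX3 was at 4.77, 4.87 and 4.27 with LA717 and at 5.19, 5.27 and 5.10 in control. Every LA717 value lay below the control values, and replicate 3 lay far below the other 2. The difference was −0.55 (SE 0.16, interval −0.93 to −0.17, limma adjusted p = 0.92), and −0.37 without LA717 replicate 3. The other members of that machinery, SAMM50, its channel, and MTX1, gave −0.060 (SE 0.086) and −0.036 (SE 0.095).

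Among the remaining lists the members with the greatest differences were CHCHD6 of the MICOS complex that shapes cristae (0.24, SE 0.11), the sideroflexin SFXN5 (0.23, SE 0.15), the nuclear receptor gene ESRRA, a regulator of mitochondrial biogenesis (0.20, SE 0.12), IMMP1L, a subunit of the inner membrane peptidase (−0.16, SE 0.12), and the assembly factor BCS1L (0.086, SE 0.10). The groups overlapped in each of these 5, and IMMP1L was dim, with a mean of 2.68, less than the median probe set. MTCH1, an outer membrane protein of the carrier family that has no SLC25A name on the array, was the other gene besides MTX3 whose groups did not overlap, and was chosen for that, where 11.5% of all genes did not overlap. It was at 8.23, 8.27 and 8.32 with LA717 and at 8.40, 8.39 and 8.46 in control, a difference of −0.14 (SE 0.082). Its paralog MTCH2, an insertase of the outer membrane, differed by 0.062 (SE 0.084).

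**Figure D4:**
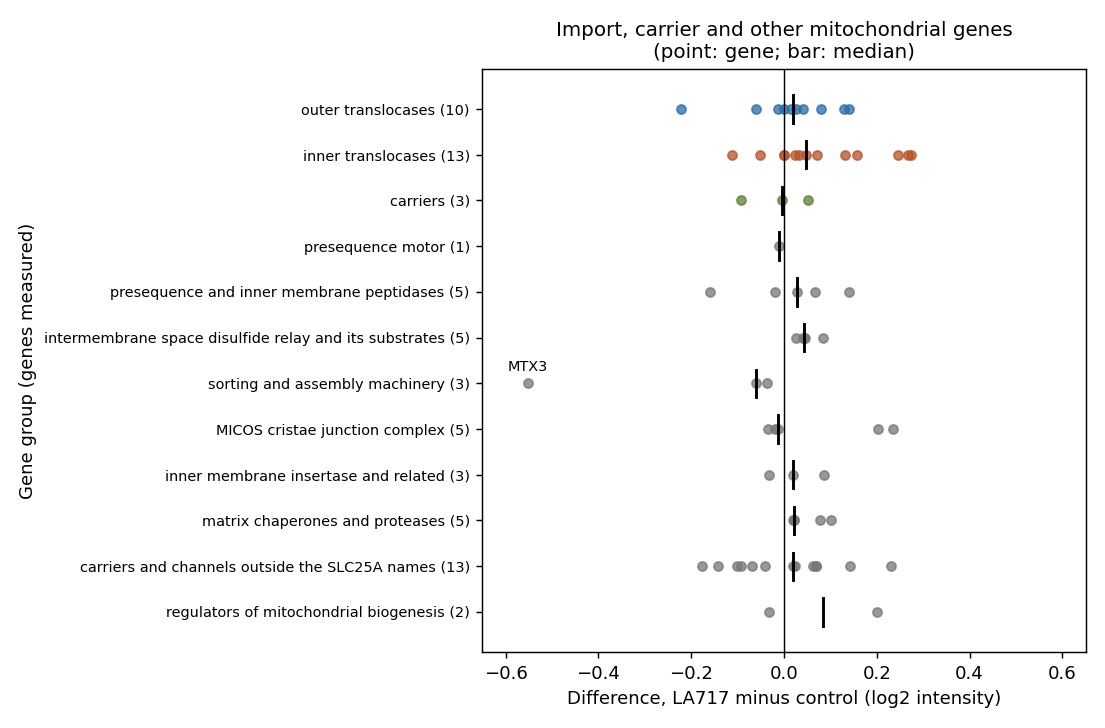
Difference between LA717 and control (log2 intensity) of each measured gene (points) and the median (bars) for the 3 groups of import and carrier genes and the 9 lists of other import and mitochondrial genes, with the number of genes in brackets. Apart from MTX3 at −0.55, the points lie between −0.22 and 0.27.

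The arrays had nearly equal distributions, with log2 medians from 3.19 to 3.23 and a Pearson's r between any pair of arrays of 0.990 to 0.991 over probe sets. Of 10 genes listed as defining A549 or epithelial cells 4 were measured, KRT8, KRT18, KRT19 and EPCAM, at mean levels from 6.16 to 11.1. Their mean per array was 7.61 to 7.77 with LA717 and 7.70 to 7.87 in control. The 2 measured of 6 fibroblast markers averaged 3.64 to 3.79 per array with LA717 and 3.78 to 4.11 in control. DCN was dim at a mean of 1.68, whereas LUM, a matrix proteoglycan gene, had a mean of 5.99. The difference of LUM was −0.38 (SE 0.15, limma unadjusted p = 0.036, adjusted p = 0.92). The 3 measured of 4 endothelial markers were dim in both groups, between 2.96 and 3.02 with LA717 and between 3.001 and 3.09 in control, and the leukocyte list had only CD14, at 7.42 to 7.98 with LA717 and 7.77 to 7.97 in control. Their part in the differences above was not tested.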

How the data were processed

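Total RNA was analysed on GeneChip Human Gene 2.0 ST arrays. The authors deposited 1 intensity per probe set and array, made with Affymetrix Expression Console and read as log2 from its range, since no source states the scale. The labels give a 3′ IVT labelling kit, which is not the usual kit for this array type. Summarisation, normalization, software version and genome build were not given in the sources used here. Deposited values went into the fit unchanged, with no pseudocount. Precision rests on the number of arrays and their spread, and signal over background is unknown. Gene names came from the platform annotation, which named exactly 1 gene for 16098 probe sets. The other 37519, with no name or with more than a single one, were not read as genes.

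The difference LA717 minus control was fitted for each of the 53617 probe sets in all 6 arrays with limma 3.58.1 in R 4.3.3 (lmFit, eBayes, two-sided) and Benjamini-Hochberg adjustment over all probe sets at 0.05. No test was run over the members as a set. The design of 3 against 3 arrays allows no exact two-sided permutation p below 0.1. The members and lists were chosen with earlier results of these data known. By the rule, values are given for core translocase genes, for genes with the highest and lowest differences among those whose groups do not overlap, and for the greatest difference in each list. Values of further members and list genes were added after they were seen. The fit was tested on simulated data, with arrays drawn independently and changes larger than any difference of the members. It cannot say how well differences of the size reported here are detected. Plots and the promoter search used Python 3.11.15 with matplotlib 3.10.9. The alternatives were other eBayes settings, array weights, the replicate block, other scalings, filters on probe sets, their mean per gene, and leaving out each array.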

Additional observations from a re-analysis of the deposited data

How the results depend on the processing

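Under 15 alternatives, 0 import or carrier genes passed the adjusted p by limma, nor did any probe set where single probe sets were tested. For 15 genes followed singly, the core translocase genes and TIMM8B, the lowest limma adjusted p was 0.778, that of TIMM8B. TIMM8B was included because its groups did not overlap. The number of the 26 genes at an unadjusted p under 0.05, 1 as reported, was 2 with an intensity trend in eBayes, 2 without dim probe sets, 2 among probe sets naming a gene, 2 with probe sets averaged per gene, 3 with the replicate number as a block, and 0 to 2 with each array left out. It was 1 under the others. The number of genes higher with LA717, 18 as reported, ran from 16 to 18 under the settings that keep all arrays and from 13 to 20 with each array left out. Of 225 values of the 15 genes followed singly, 207 kept their sign. Those that turned belonged to genes with differences near 0. TOMM20 gave −0.0068 with array quality weights and −0.0026 with median centring. TIMM17B gave −0.0057 with quantile normalization and −0.0032 with median centring. TIMM13 gave 0.0069 with array quality weights and 0.0042 with quantile normalization. With each array left out, TOMM20 ran from −0.045 to 0.043, TIMM17A from −0.034 to 0.092, TIMM17B from −0.040 to 0.051, TIMM50 from −0.14 to 0.0033, TIMM22 from −0.0093 to 0.13 and TIMM13 from −0.044 to 0.055. The cause was not tested. Same-numbered LA717 and control arrays had deviations that correlated at 0.024, 0.015 and 0.033 over all probe sets. These low values cannot decide whether the replicate numbers are pairs, since every probe set, dim ones included, entered them. All 6 arrays did correlate best with the same-numbered array of the other group. These matches are not separate, since each pair of arrays is counted from both sides and deviations within a group sum to 0. They cannot decide the question either, and the labels do not state pairs. The replicate block left each difference as it was and brought 0 genes past the adjusted p. At an unadjusted p under 0.05 it added TIMM9 and TIMM10 to TIMM8B, and it changed no other call.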
